A study of Danio rerio with 4 samples.

Results

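The genes described here encode splicing factors and hnRNPs (heterogeneous nuclear ribonucleoproteins), the proteins that bind pre-messenger RNA and remove its introns. They are the rows of the count table whose Ensembl symbol, case ignored, starts with hnrnp, srsf, sfrs, snrp, sf3a or sf3b and whose counts sum to at least 10 over 4 libraries. The prefixes matched 52 of 32434 gene rows, and 46 of these reached 10 counts, among 4163 such genes in the whole table. The 46 fall into 19 hnRNP genes, 12 SR protein genes, 10 snRNP core genes and 5 genes of the SF3a and SF3b complexes. Of the 6 rows below 10 counts, hnrnph1, hnrnpul1l, SF3A1 and SF3B5 had 8, 4, 9 and 9 counts, and hnrnph3 and hnrnpa3 had 0.

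RNA came from zebrafish embryos of the strain Tg(fli1:gal4;uasKaede) at 24 hours post fertilization. In this strain the endothelial fli1 promoter drives Gal4, which switches on Kaede, a fluorescent protein switched to red by light. All libraries come from red cells sorted from 6 embryos per group: 2 libraries from cells converted in the ventral part of the posterior cardinal vein (PCV), the main vein of the trunk, and 2 from its dorsal part. Nothing in the labels says that a side's libraries stem from different embryo pools, and p-values may therefore reflect technical spread alone. The libraries were made with CEL-Seq, which tags each transcript at its 3' end, so that levels, given as counts per 1000000 gene counts (CPM), are per transcript and were not divided by length.

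hnRNPs coat nascent transcripts and steer which splice sites are used, often by blocking them. SR proteins carry stretches rich in arginine and serine, bind exons and recruit the splicing machinery, often against hnRNPs. The small nuclear ribonucleoproteins (snRNPs) are the core of the spliceosome. Most of them carry a ring of Sm proteins around their RNA, and SF3a and SF3b help the U2 snRNP to hold the branch point of the intron. The roles given here are known mainly from mammals and yeast. Teleost fish kept extra copies of many of these genes after a genome duplication, so several occur as pairs of paralogues. No sequence of these genes was at hand, and none is shown.

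Ventral libraries 1 and 2 held 108405 and 79527 gene counts, and dorsal libraries 1 and 2 held 115876 and 51376. The genes described here held 973 and 815 ventral counts, and 1141 and 378 dorsal counts, with 44 to 46 of the 46 genes counted in each library. The highest had 86 counts in a library, far below 1024, the highest count of any gene in the table. A single count was worth 9.22 and 12.6 CPM on the ventral side, and 8.63 and 19.5 CPM on the dorsal side. Dorsal library 2 was the shallowest, and a gene with no count there could lie at up to 58.4 CPM (3 counts; counting error only). Per count of ERCC spike-in RNA there were 11.2 and 9.68 gene counts on the ventral side, and 12.5 and 4.68 on the dorsal side.

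Summed levels of some cell type markers differed between the sides, while erythroid and muscle sums overlapped. A list of 19 pan-endothelial genes (without TAL1, which blood cells also express and which was taken out after the data were seen) summed to 1255 and 1308 CPM in ventral libraries, against 431 and 526 CPM in dorsal ones. With TAL1 the sums were 1660 and 1698 CPM in ventral and 975 and 1187 CPM in dorsal libraries. Single rows of this list differed widely in depth. cdh5 had 2 and 1 ventral and 4 and 0 dorsal counts. KDR had 1 count over all libraries, while robo4, plvapa and ERG had 0. Better counted was plvapb, at 22 and 20 in ventral libraries against 10 and 6 in dorsal ones. The same comparison gave 23 and 11 against 8 and 2 for she, and 10 and 10 against 2 and 3 for tek. The row of the driver gene, FLI1, overlapped between the sides, at 9 and 7 against 0 and 5. Both ventral levels lay below both dorsal ones for ecscr and TAL1. Of the 20 pan-endothelial rows matched, 10 reached 10 counts. All 14 erythroid rows did, and they summed to 45422 and 57880 CPM in ventral libraries, against 46170 and 83755 CPM in dorsal ones. The globin rows had 972 to 1022 counts in every library, next to 1024, the highest count in the table. Their CPM, most of the erythroid sum, therefore mainly follows library depth. The 10 erythroid rows that are no globins, a choice made after seeing the data, summed to 7850 and 7343 CPM in ventral libraries, against 10960 and 7221 CPM in dorsal ones. In the edgeR test described below, 8 of these 10 had a log2 fold (ventral over dorsal) below 0 and 2 above. Of all tested genes 53.9% lay below 0. Unadjusted p by edgeR was under 0.05 for 3 of the 10, all lower in the ventral libraries, beside 4.65% of all tested genes. None of the 10 passed the adjusted threshold. The 15 epidermal rows summed to 3994 and 1471 CPM in ventral libraries, against 613 and 993 CPM in dorsal ones. Rows counted in ventral library 1 alone included krt4, krt17 and cyt1l. Both ventral libraries were above both dorsal ones for krt8, at 793 and 478 CPM against 198 and 175 CPM. All 4 epidermal rows tested by edgeR had a log2 fold above 0. Unadjusted p was under 0.05 for 3 of them, beside 7.51% of all tested genes higher in the ventral libraries. None of the 4 passed the adjusted threshold. The 8 neural rows summed to 212 and 189 CPM in ventral libraries, against 164 and 77.9 CPM in dorsal ones. Those sums rest on 23 and 15 ventral and 19 and 4 dorsal counts, with ELAVL4, GFAP, SOX3 and neurog1 at 0. The 4 muscle rows summed to at most 19.5 CPM, with MYOD1 and MYOG at 0. The part of these differences in the results below was not tested. In sorted bulk samples, fewer cells of a type and less RNA per cell cannot be told apart.

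Summed over its genes, hnRNP was the most abundant class in every library, and it also had the most genes. By the median gene (mean CPM over the libraries) SR protein genes led at 202 CPM. The medians were 129 CPM for hnRNP, 108 CPM for snRNP core and 93.3 CPM for SF3 genes. Together the 46 genes made up 0.898% and 1.02% of all gene counts on the ventral side, against 0.985% and 0.736% on the dorsal side. The 19 hnRNP genes held 47.3% of the counts of all 46, SR protein genes 26.8%, snRNP core genes 19.5% and SF3 genes 6.47%. Summed hnRNP levels were 4677 and 4829 CPM in ventral libraries, against 4332 and 3309 CPM in dorsal ones, and the sides did not overlap. The means were 4753 ± 107 CPM ventral and 3821 ± 724 CPM dorsal (SD, n = 2 libraries each), a ratio of 1.24. The dorsal libraries lay further from each other than dorsal library 1 lay from the ventral ones. The log2 ratio of the summed levels was 0.31 with all libraries and 0.13 without dorsal library 2. It was 0.18 without the A1 genes described below, a choice made after seeing the data.

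Sums of the other classes overlapped between the sides. SR protein genes summed to 2242 and 2615 CPM in ventral libraries, against 2805 and 2141 CPM in dorsal ones, a ratio of the means of 0.982. snRNP core genes summed to 1596 and 2213 CPM in ventral libraries, against 1881 and 1499 CPM in dorsal ones, a ratio of 1.13. SF3 genes summed to 461 and 591 CPM in ventral libraries, against 828 and 409 CPM in dorsal ones, a ratio of 0.850. For each of these classes the spread within a side was larger than the difference between the side means. The log2 ratio of the SF3 sum was -0.23 with all libraries, -0.66 without dorsal library 2 and 0.36 without dorsal library 1, so its sign rests on single dorsal libraries. That of the SR sum was -0.03 with all libraries, -0.21 without dorsal library 2, 0.18 without dorsal library 1 and 0.16 when libraries were scaled to ERCC counts. That of the snRNP core was 0.17 with all libraries, -0.08 without ventral library 2 and 0.01 without SNRPB, its most abundant gene.

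**Figure D1:**
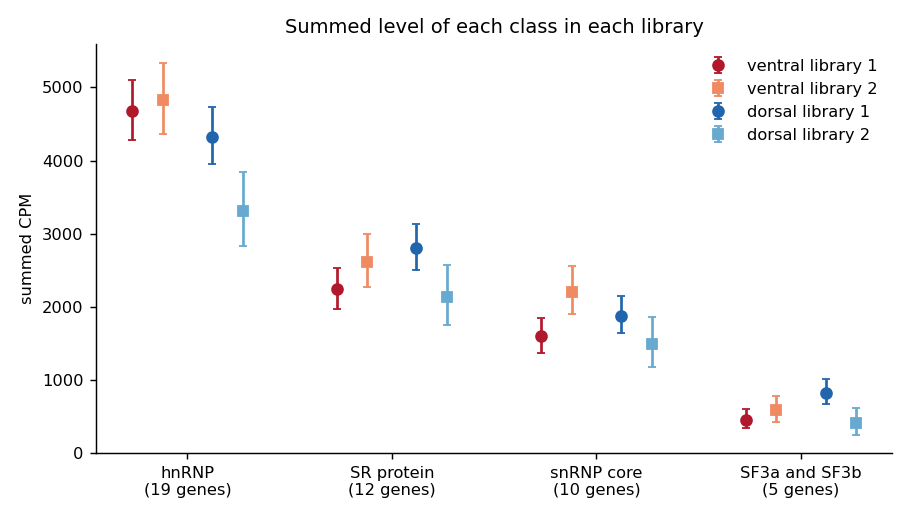
Summed level of each class in each library, in CPM on an axis from 0; each symbol is 1 library, red shades ventral and blue shades dorsal, and bars are exact 95% binomial intervals for counting error. The hnRNP sums of both ventral libraries (4677 and 4829 CPM) lie above those of both dorsal libraries, while the other classes overlap.

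The ratio of hnRNP to SR protein counts did not overlap between the sides, but its counting error was not computed. There were 2.09 and 1.85 hnRNP counts per SR protein count in ventral libraries 1 and 2, against 1.54 and 1.55 in dorsal libraries 1 and 2. The ratio in dorsal library 2 rests on 170 hnRNP and 110 SR protein counts, and that in ventral library 2 on 384 and 208. Whether the gap between these libraries exceeds counting error was not tested. This ratio is taken within a library, so it does not depend on how libraries are scaled to each other. Without the A1 genes described next, a choice made after seeing the data, it was 1.56 and 1.50 in ventral libraries, against 1.31 and 1.34 in dorsal ones. The sides did not overlap in either form of the ratio, but the hnRNP sums themselves overlapped without the A1 genes. They then held 378 of 108405 gene counts in ventral library 1, against 426 of 115876 in dorsal library 1. An exact test of 2 libraries against 2 cannot go below p = 0.333, so no test was made. The hnRNP to snRNP core ratio overlapped, at 2.93 and 2.18 in ventral libraries against 2.30 and 2.21 in dorsal ones. The SR protein to snRNP core ratio was 1.40 and 1.18 in ventral libraries against 1.49 and 1.43 in dorsal ones, with both ventral values below both dorsal values by a narrow margin for ventral library 1.

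In the test of single genes none of the 46 was called. Ventral libraries were compared with dorsal ones by edgeR's quasi-likelihood F test over 1399 genes that passed its expression filter, 30 of the 46 among them, with Benjamini-Hochberg adjustment over all 1399 and a threshold of 0.05. The test called 6 genes higher in the ventral libraries, or 0.429% of those tested, and 0 lower, with no splicing factor or hnRNP gene among them. Before adjustment 2 of the 30 (6.67%) had p under 0.05, both higher in the ventral libraries, beside 12.2% of all tested genes, 7.51% higher and 4.65% lower. DESeq2 called 0 genes in all and none of the 46, and had 0 of the 46 at an unadjusted p under 0.05, beside 0.462% of 12123 genes. limma voom called 0 genes in all and had 3 of the 30 it tested at an unadjusted p under 0.05, beside 12.7% of 1399 genes. The median log2 fold change (ventral over dorsal) of the 30 was 0.10, beside -0.03 over all tested genes. Of the 30, 13 were below 0 (43.3%), beside 53.9% of all tested genes. By class the median was 0.26 for 12 hnRNP genes, 0.03 for 9 SR protein genes, 0.20 for 6 snRNP core genes and -0.38 for 3 SF3 genes.

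A missed threshold does not show that levels were alike, and the intervals differ in width. For 13 of the 30 tested genes the interval of 2 SE around the fold lay within a 2-fold change in either direction, 6 of them hnRNP and 5 SR protein genes. For the other 17 the interval reached past a 2-fold change, and for all of them but hnrnpa1a, HNRNPA1L2 and SNRPB it also held 0. Counting non-overlap instead, both ventral libraries lay above both dorsal ones for 13 of the 46 genes (28.3%), beside 20.0% of the 4163 genes with 10 or more counts. Both lay below for 5 (10.9%), beside 17.7%. Of the 13, 8 were hnRNP genes, 4 snRNP core genes and 1 an SR protein gene. Among these hnRNP genes, hnrnpa0l, hnrnph1l and hnrnpc passed by less than a single count was worth. They stood at 747, 148 and 64.6 CPM in ventral library 1, against 742, 147 and 60.4 CPM in dorsal library 1.

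**Figure D2:**
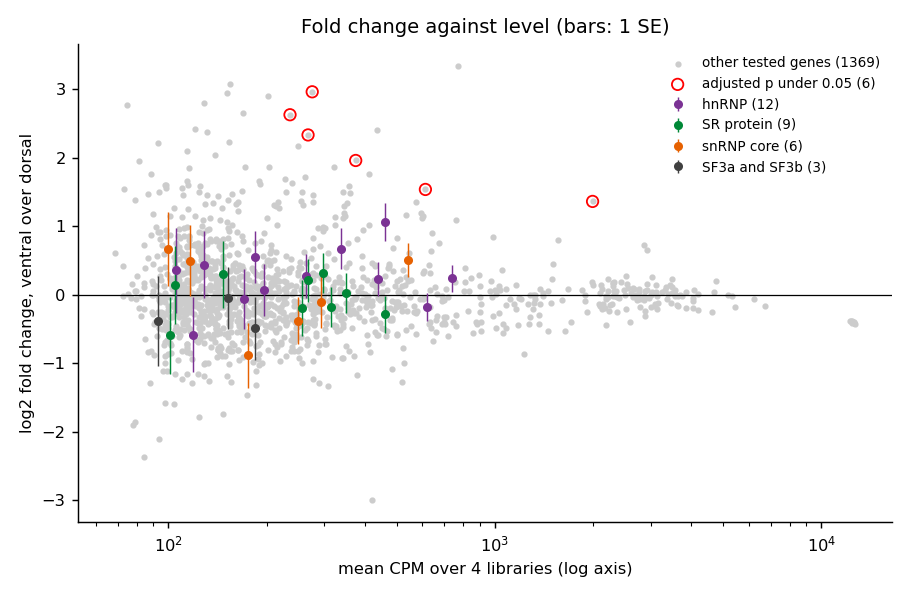
Log2 fold change (ventral over dorsal) against mean CPM (log axis) for all 1399 tested genes; grey points are other genes, coloured points with bars of 1 SE are the 30 tested splicing factor and hnRNP genes by class, and red circles mark the 6 genes past the adjusted threshold. No coloured point is circled, and the highest of them is hnrnpa1a at 1.06.

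Among hnRNP genes the A/B type led. These proteins carry paired RNA recognition motifs and a glycine-rich tail; the 6 rows named for A0, A1 and AB held 64.9% of hnRNP counts, with 68.4% and 63.5% in ventral libraries and 62.0% and 65.9% in dorsal ones. The first gene by level was hnrnpa0l (ENSDARG00000036161), at 747 and 868 CPM in ventral libraries, against 742 and 603 CPM in dorsal ones. It stood at rank 193 of all genes by mean CPM. HNRNPAB (ENSDARG00000007960) followed, at 581 and 591 CPM in ventral libraries, against 725 and 584 CPM in dorsal ones. It was lower than hnrnpa0l in all 4 libraries, and its sides overlapped, with a log2 fold of -0.18 ± 0.21 (SE).

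The A1 genes had the highest folds of the 12 hnRNP genes tested. hnRNP A1 is a shuttling protein that silences exons and competes with SR proteins for splice sites in mammals. The row hnrnpa1a (ENSDARG00000011020) had 77 and 44 counts in ventral libraries, against 43 and 11 in dorsal ones. That is 710 and 553 CPM in ventral libraries, against 371 and 214 CPM in dorsal ones, with a mean of 632 ± 111 CPM ventral and 293 ± 111 CPM dorsal (SD, n = 2 each). Both ventral libraries lay above both dorsal ones. The log2 fold was 1.06 ± 0.28 (SE), with an interval of 0.50 to 1.62 (2 SE). In edgeR's test its unadjusted p was 0.00388 and its adjusted p 0.157, so it was not called.

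HNRNPA1L2 (ENSDARG00000036675), a row whose symbol marks it as A1-like, had 52 and 28 counts in ventral libraries, against 33 and 12 in dorsal ones. Its levels were 480 and 352 CPM in ventral libraries, against 285 and 234 CPM in dorsal ones, again without overlap. The log2 fold was 0.67 ± 0.30 (SE), and edgeR's test gave an unadjusted p of 0.0483 and an adjusted p of 0.403. Summed, the A1 family stood at 1190 and 905 CPM in ventral libraries, against 656 and 448 CPM in dorsal ones. Pan-endothelial and epidermal genes were also higher in the ventral libraries, as given above, and their part in this difference was not tested. Without ventral library 2 hnrnpa1a was called, with a log2 fold of 1.26 and an adjusted p of 0.0103. In that fit 3.98% of all tested genes were called higher and 0.332% lower. Leaving out ventral library 1 gave 0.928% higher and 0.464% lower, leaving out dorsal library 1 gave 0.596% and 0.861%, and leaving out dorsal library 2 gave 4.08% and 0.657%. With no expression filter these shares were 0.355% higher and 0.0330% lower. Over all 9 alternatives the log2 fold of hnrnpa1a lay between 0.86 and 1.44, and its adjusted p between 0.0103 and 0.999.

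**Figure D3:**
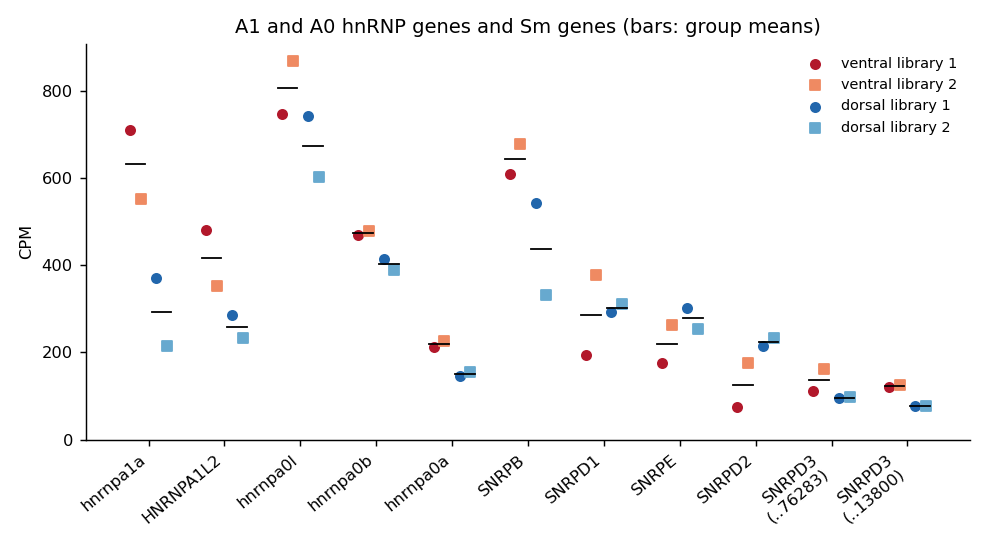
Levels in CPM (axis from 0) of the A1 and A0 hnRNP genes and the Sm genes in each library; red shades are ventral, blue shades dorsal, and black bars are group means of 2 libraries; genes that share a symbol carry the last digits of their identifier. hnrnpa1a has the widest gap, at 710 and 553 CPM ventral against 371 and 214 CPM dorsal, and SNRPD2 lies lower in both ventral libraries.

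The A0 genes had smaller positive folds, none of them called. hnrnpa0b (ENSDARG00000036162) stood at 470 and 478 CPM in ventral libraries, against 414 and 389 CPM in dorsal ones, and hnrnpa0a (ENSDARG00000089302) at 212 and 226 CPM, against 147 and 156 CPM in dorsal ones. For all 3 A0 rows both ventral libraries lay above both dorsal ones, as for 20.0% of the 4163 genes with 10 or more counts. For hnrnpa0l the margin was 747 CPM in ventral library 1 against 742 CPM in dorsal library 1, less than a single count was worth. Their log2 folds were 0.24 ± 0.20 for hnrnpa0l, 0.23 ± 0.25 for hnrnpa0b and 0.55 ± 0.38 for hnrnpa0a (SE), with adjusted p of 0.775, 0.851 and 0.677 in edgeR's test. In the RefSeq annotation of another build (GRCz12tu) hnrnpa0b and hnrnpa0l overlap, so how reads were split between these rows is uncertain.

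Folds of the remaining tested hnRNP genes had both signs, and none was called. HNRNPU (ENSDARG00000004735), a chromatin-bound scaffold factor, stood at 258 and 327 CPM in ventral libraries, against 259 and 214 CPM in dorsal ones. HNRNPM, a splicing regulator, stood at 166 and 239 CPM in ventral libraries, against 190 and 195 CPM in dorsal ones. HNRNPK (ENSDARG00000018914), which binds C-rich RNA, stood at 138 and 214 CPM in ventral libraries, against 233 and 97.3 CPM in dorsal ones. All 3 overlapped between the sides, with log2 folds of 0.27 ± 0.32, 0.06 ± 0.38 and -0.06 ± 0.44 (SE). hnrnpl2, related to the CA-repeat binder hnRNP L, had the lowest fold of the tested hnRNP genes at -0.58 ± 0.55 (adjusted p = 0.798, edgeR), with 64.6 and 126 CPM in ventral libraries and 129 and 156 CPM in dorsal ones. hnrnpc, whose product binds runs of U, had 7 and 7 counts in ventral libraries, against 7 and 0 in dorsal ones. Its 0 in dorsal library 2 allows up to 58.4 CPM, and 7 counts in dorsal library 1 were 60.4 CPM, so no absence can be read from it.

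SR protein genes had the class ratio closest to 1, with the changes of sign given above. srsf5a (ENSDARG00000029818) led with 369 and 478 CPM in ventral libraries, against 613 and 389 CPM in dorsal ones. SRSF1 (ENSDARG00000057691), the founding SR protein, stood at 397 and 302 CPM in ventral libraries, against 328 and 370 CPM in dorsal ones. The sides of both genes overlapped, and the log2 fold of SRSF1 was 0.03 ± 0.30 (SE), with an interval of -0.57 to 0.62 (2 SE). srsf2a, which also binds exonic enhancers, stood at 268 and 327 CPM in ventral libraries, against 354 and 311 CPM in dorsal ones. SRSF3 (ENSDARG00000059360), a small SR protein that also takes part in mRNA export, stood at 351 and 314 CPM in ventral libraries, against 293 and 234 CPM in dorsal ones. It was the single SR gene with both ventral libraries above both dorsal ones, with a fold of 0.32 ± 0.30 on the log2 scale (SE; adjusted p = 0.798 by edgeR). srsf7a, an SR protein with a zinc knuckle, stood at 268 and 314 CPM in ventral libraries, against 276 and 214 CPM in dorsal ones.

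Log2 folds of the 9 tested SR genes lay between -0.59 and 0.32, and the smallest adjusted p among them was 0.798 in edgeR's test. SRSF6 (ENSDARG00000013729) stood at 184 and 314 CPM in ventral libraries, against 371 and 156 CPM in dorsal ones, a wider gap within each side than between the sides. srsf10b, whose mammalian counterpart can repress splicing, had 39 counts over all libraries and a log2 fold of 0.14 ± 0.57 (SE), and SRSF9 had 22 counts and was not tested.

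**Figure D4:**
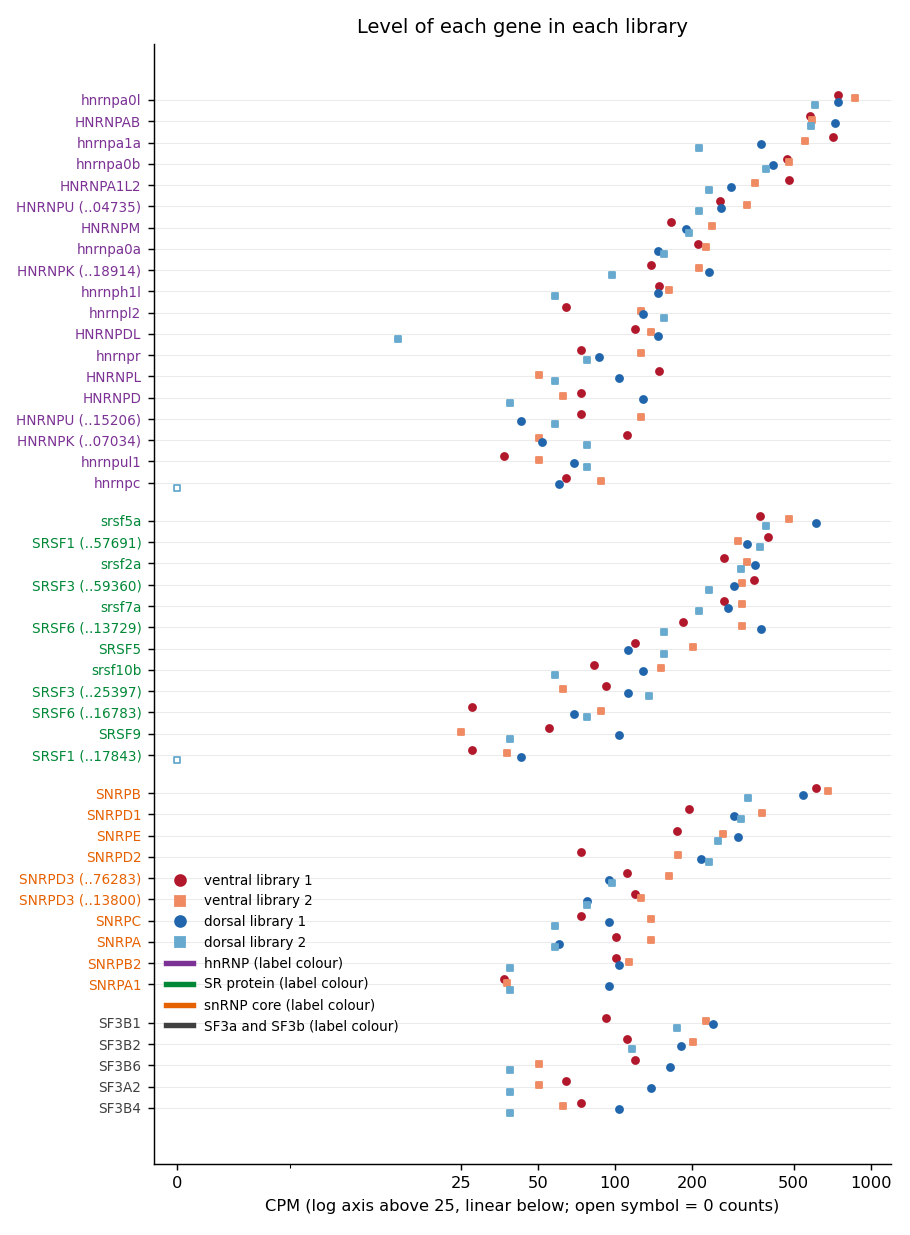
CPM of all 46 genes in each library (log axis above 25 CPM, linear below), ordered by mean level within each class; red shades are ventral and blue shades dorsal libraries, open symbols mark 0 counts, and genes that share a symbol carry the last digits of their identifier. Levels within a class span from 27.1 to 462 CPM for SR protein genes and from 53.3 to 740 CPM for hnRNP genes (means of 4 libraries), and the 2 open symbols are hnrnpc and a SRSF1 copy in dorsal library 2.

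The Sm genes did not have equal levels by these 3' end counts, although their proteins sit together in 1 ring. How evenly the 3' ends of different genes were captured and mapped was not tested. SNRPB (ENSDARG00000011125), which encodes SmB, led with 609 and 679 CPM in ventral libraries, against 544 and 331 CPM in dorsal ones. SNRPD1 stood at 194 and 377 CPM in ventral libraries, against 293 and 311 CPM in dorsal ones. SNRPE stood at 175 and 264 CPM in ventral libraries, against 302 and 253 CPM in dorsal ones. SNRPB exceeded SNRPD1, the next gene by level, in all 4 libraries, though in dorsal library 2 only by 17 counts against 16. SNRPD3 is split over a pair of rows, which summed to 231 and 289 CPM in ventral libraries, against 173 and 175 CPM in dorsal ones.

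Sm genes also went in different directions between the sides. SNRPB was above in both ventral libraries, with a fold of 0.51 ± 0.25 on the log2 scale (SE; adjusted p = 0.463 by edgeR). Both SNRPD3 rows were above as well, at 0.50 ± 0.51 (ENSDARG00000076283) and 0.66 ± 0.54 (ENSDARG00000013800). SNRPD2 was below, with 8 and 14 counts or 73.8 and 176 CPM in ventral libraries, against 25 and 12 counts or 216 and 234 CPM in dorsal ones. Its log2 fold was -0.88 ± 0.48 (SE; adjusted p = 0.529, edgeR), the lowest of the 30 tested genes, and it stood at -0.34 without ventral library 1. Its 8 counts in ventral library 1 set much of the fold. None of these genes was called, and the ring partners SNRPF and SNRPG, for which no symbol matched, are not analysed here.

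Proteins particular to single snRNPs had lower counts, and their genes did not enter the test. SNRPA, a protein of the U1 snRNP, had 11 and 11 counts in ventral libraries, against 7 and 3 in dorsal ones, which is 101 and 138 CPM ventral against 60.4 and 58.4 CPM dorsal. SNRPC, also of the U1 snRNP, stood at 73.8 and 138 CPM in ventral libraries, against 94.9 and 58.4 CPM in dorsal ones. The U2 genes SNRPB2 and SNRPA1 had 34 and 20 counts over all libraries. SNRPA did not overlap between the sides, yet 3 counts in dorsal library 2 leave that level poorly set.

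In the SF3 complexes all 5 genes overlapped between the sides. SF3B1 (ENSDARG00000056138), the large subunit that clasps the branch helix, stood at 92.2 and 226 CPM in ventral libraries, against 242 and 175 CPM in dorsal ones. SF3B2 stood at 111 and 201 CPM in ventral libraries, against 181 and 117 CPM in dorsal ones. SF3B6 stood at 120 and 50.3 CPM in ventral libraries, against 164 and 38.9 CPM in dorsal ones. The log2 folds were -0.49 ± 0.46, -0.04 ± 0.45 and -0.38 ± 0.66 (SE), and edgeR gave an adjusted p of 0.798 or more for each. SF3A2 and SF3B4, with 29 and 27 counts, were highest in dorsal library 1 at 138 and 104 CPM, above the other 3 libraries.

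Paralogues of the same family had unequal 3' end counts in most families. How evenly the 3' ends of the copies were captured and mapped was not tested. Rows were grouped where their symbols share letters and number, which gave 11 families with at least 10 counts, of 2 rows each but for A0 with 3. This rule kept the related rows HNRNPL and hnrnpl2 apart, with 35 and 40 counts, so they are not among the families. In 9 of the 11 the same row led in all 4 libraries. In 9 of the 11 the exact 95% binomial interval of the leader's pooled share, which covers counting error only, lay above 50%. The leader was chosen as the row with the most pooled counts, so part of its lead comes from that choice. For A0 with 3 rows an equal split lies below 50%. The clearest was srsf1, where SRSF1 (ENSDARG00000057691) held 91.9% of 135 counts (interval 85.9% to 95.9%) and the other SRSF1 copy (ENSDARG00000017843) 3 and 3 ventral and 5 and 0 dorsal counts. Next came hnrnph1l with 86.0% of the hnrnph1 family (74.2% to 93.7%, 57 counts) and hnrnpul1 with 83.3% of its family (62.6% to 95.3%, 24 counts). SRSF6 (ENSDARG00000013729) held 81.4% over the copy ENSDARG00000016783 (73.1% to 87.9%), and HNRNPU (ENSDARG00000004735) 78.5% over ENSDARG00000015206 (70.1% to 85.5%).

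Milder leads were found in 3 families. srsf5a held 77.2% (71.0% to 82.6%) over SRSF5 (ENSDARG00000027734), SRSF3 (ENSDARG00000059360) 75.7% (67.9% to 82.4%) over ENSDARG00000025397, and HNRNPK (ENSDARG00000018914) 71.1% (60.6% to 80.2%) over ENSDARG00000007034. The lead in HNRNPK varied, at 55.6% and 81.0% in ventral libraries and 81.8% and 55.6% in dorsal ones. In the A1 pair hnrnpa1a held 58.3% of 300 counts (52.5% to 64.0%). The A0 family has 3 rows, and hnrnpa0l held 54.5% of its 490 counts, hnrnpa0b 32.0% and hnrnpa0a 13.5%. The SNRPD3 pair was not told from an equal split, at 53.2% (41.5% to 64.7%).

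**Figure D5:**
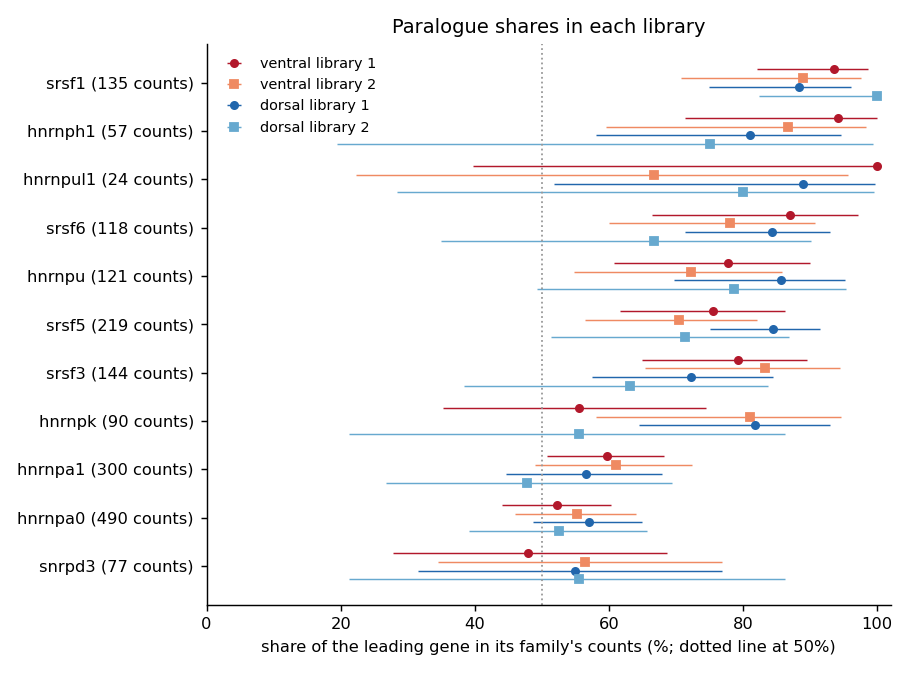
Share of the leading row in its family's counts (percent) in each library for the 11 families; red shades are ventral and blue shades dorsal libraries, bars are exact 95% binomial intervals for counting error, and the dotted line marks 50%. The srsf1 family has the highest pooled share of its leader (91.9%) and the snrpd3 family the lowest (53.2%).

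No test of the paralogue shares between the sides was made, since 2 libraries against 2 are too few. The leader's share overlapped between the sides in 7 of the 11 families, was higher in both ventral libraries in 3 and lower in both in 1. For 2 libraries against 2, non-overlap has a probability of 0.333 when the sides do not differ, so these counts show no shift of shares. In the srsf3 family the leader held 79.2% and 83.3% in ventral libraries, against 72.3% and 63.2% in dorsal ones, with the intervals of all 4 overlapping. The copies of SRSF3 thus lay on opposite sides of 0, at log2 folds of 0.32 ± 0.30 for the leader and -0.59 ± 0.56 (SE) for the other, which stood at 92.2 and 62.9 CPM in ventral libraries and 112 and 136 CPM in dorsal ones. In the A1 family hnrnpa1a held 59.7% and 61.1% in ventral libraries, against 56.6% and 47.8% in dorsal ones. In the hnrnph1 family hnrnph1l held 94.1% and 86.7% in ventral libraries, against 81.0% and 75.0% in dorsal ones, on 17, 15, 21 and 4 family counts. The HNRNPU leader was the reverse, with 77.8% and 72.2% in ventral libraries, against 85.7% and 78.6% in dorsal ones. Reads that align to more than 1 place are listed at 0 in the table, so how reads shared by near-identical copies were treated cannot be traced and these shares are uncertain.

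None of the other splicing genes tested was called in the same fit. A list of 174 symbols for other spliceosome parts and splicing regulators matched 122 rows, of which 84 had at least 10 counts and 33 were tested. No gene passed, beside 0.429% of all tested genes called higher and 0 lower, and 5 had an unadjusted p under 0.05, with 4 higher and 1 lower in the ventral libraries, beside 7.51% higher and 4.65% lower of all tested genes. The median log2 fold was 0.20, beside -0.03 over all tested genes, with 22 above 0 and 11 below, beside 46.1% above 0 and 53.9% below. Their sum stood at 13237 and 13505 CPM in ventral libraries, against 12608 and 11484 CPM in dorsal ones, a ratio of 1.11.

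The smallest p in that list was that of SYNCRIP (ENSDARG00000040184), also called hnRNP Q, which had 74 and 81 counts in ventral libraries, against 61 and 18 in dorsal ones. Its log2 fold was 0.91 ± 0.26 (SE; unadjusted p = 0.00624, adjusted p = 0.175, edgeR). acin1a, of a complex bound to spliced exon junctions, stood at 683 and 365 CPM in ventral libraries, against 319 and 214 CPM in dorsal ones, at 0.95 ± 0.34. NOP56, which belongs to particles that modify RNA, stood at 655 and 679 CPM in ventral libraries, against 501 and 350 CPM in dorsal ones, at 0.61 ± 0.23. srrm1, a cofactor with many arginine-serine repeats, stood at 203 and 201 CPM in ventral libraries, against 112 and 97.3 CPM in dorsal ones, at 0.93 ± 0.41. RBM8A, a core part of the exon junction complex, was the single gene of the 5 below 0, at 166 and 126 CPM in ventral libraries, against 276 and 311 CPM in dorsal ones, at -0.96 ± 0.36. SYNCRIP was called without ventral library 1 (log2 fold 1.18, adjusted p = 0.00465, edgeR), and acin1a without ventral library 2 (1.35, adjusted p = 0.00596). In all 5 genes the sides did not overlap, which adds no support, since they were picked by their p from these same libraries. Their adjusted p lay between 0.175 and 0.409 in edgeR's test.

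The spread between single libraries was set beside that between sides. The median absolute difference in log2(CPM + 10) across the 46 genes was 0.40 between the ventral libraries and 0.40 between the dorsal ones. Between a ventral and a dorsal library it was 0.50, 0.51 and 0.54 for 3 of the 4 pairs, above both pairs within a side, and 0.32 for ventral library 2 and dorsal library 1. Across the 4163 genes with 10 or more counts it was 0.45 within the ventral side, 0.61 within the dorsal side and 0.50 to 0.66 between sides.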

How the data were processed

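The deposited values are raw counts of genes (Ensembl identifiers) and ERCC spike-ins in 4 CEL-Seq libraries, made, per the labels' protocols, with a barcode and a molecular identifier in each primer. The submitters' processing notes list CASAVA 1.8, Bowtie2 2.1.0, HTSeq 0.5.4p3 and build Zv9 without roles. No gene row passes 1024 counts, the number of possible identifiers of 5 bases, so the authors' counts were read as distinct identifiers, an inference from the values; neither that nor the identifier length is stated. The 5 rows that name no gene (96.4% to 97.4% of each column) stayed out of library sizes and tests. Symbols came from an Ensembl name table, which covers 20769 of 32434 rows.

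CPM is over total gene counts. edgeR 4.0.16 in R 4.3.3 tested all genes that passed filterByExpr, with TMM factors and 2 residual degrees of freedom, and was tested on simulated data. Alternatives were DESeq2 1.42.0, limma 3.58.1 (voom), other scalings, no filter and leaving out each library. Described in full are the 5 most abundant genes per class, those with unadjusted p under 0.05 and paralogue families. Members and lists were chosen with earlier results of these data known. Replicate numbers follow sample order. The sample number of each ventral library lies next to that of a dorsal library, but the labels do not say whether they are paired.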

Additional observations from a re-analysis of the deposited data

How the results depend on the processing

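Without ventral library 2 hnrnpa1a was called higher, so that 0 to 1 of the 46 genes were called higher over the fits without a library, and 0 lower in every alternative fit. Among the other splicing genes 0 to 1 were called higher without a library, SYNCRIP without ventral library 1 and acin1a without ventral library 2. Over all genes, the count called higher was 0 with DESeq2, limma voom and ERCC scaling, 43 with no filter, and 9 to 87 without a library (87 without dorsal library 2, 84 without ventral library 2, 14 without ventral library 1, 9 without dorsal library 1), against 6. The count called lower was 4 with no filter and 7 to 14 without a library, against 0. With 1 library left in a group, that library is assumed to vary like the others. ERCC scaling moved the median log2 fold of all genes to 0.22, against -0.03. Class sums moved by less than their spread between libraries under every alternative, and no leading paralogue's share moved by more than its spread. Of 31 tested genes followed through the alternatives, 10 changed sign of the fold under at least 1 alternative, none of them called. HNRNPM, hnrnpl2 and srsf10b, also given with folds above, were not among the 31. No paired analysis was made, because the labels do not say which libraries, if any, are paired. Depth left 16 of the 46 genes outside the test.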
